A study of Mus musculus with 20 samples.

Results

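Livers of mice with hemorrhagic shock and severe trauma were compared with livers of mice with minor trauma, over all genes. The shock group held 4 arrays, from animals taken at the end of 1.5 h of shock with severe trauma and given no resuscitation, and the minor trauma group held 3. These 7 arrays were chosen by their titles out of 20 in the series. The other arrays were 5 of non-manipulated control mice and 4 each at 1 h and 4.5 h of resuscitation after the same injury. All animals were male C57BL/6, an inbred strain with no transgene named in the labels, aged 8 to 12 weeks, and RNA came from whole liver. Levels were read with Affymetrix Mouse430_2 arrays, on which short oligonucleotides of a probe set measure 1 transcript, and each array is 1 sample. The labels do not say what the minor trauma was or when after it the animals were sampled. The severity of injury, blood loss and the time since injury therefore cannot be told apart in this comparison. Nothing in the labels states that the arrays stand for separate animals. Standard errors and p-values of single genes rest on the spread within groups over all 20 arrays, not on these 7 alone. A gene that varies among control or resuscitation arrays can thus miss the threshold although shock and minor trauma do not overlap. A gene that varies little in those arrays can pass it although its shock or minor trauma arrays are widely spread.

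Hemorrhagic shock lowers blood flow and oxygen delivery to the liver while stress hormones and nerves act on it. Within minutes to hours such stimuli switch on immediate early genes, which need no new protein and encode transcription factors, feedback phosphatases and messenger RNA decay factors. Cytokines released by resident macrophages follow, and hepatocytes answer interleukins with acute phase proteins over a longer time. Tissue injury of many grades brings that later response.

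Markers of the labelled tissue were bright. Over the 14 hepatocyte markers tested the mean level ran from 12.13 to 12.23 in minor trauma and from 12.15 to 12.24 in shock. The array median was 4.60. Alb (albumin) read 13.19, 13.08 and 13.26 in minor trauma and 13.15, 13.26, 13.26 and 13.11 in shock, as log2(signal + 6) after quantile normalization. Levels are given on this scale throughout, for minor trauma arrays 1 to 3 and shock arrays 1 to 4 in order. The array labelled minor trauma 3 stood apart: its correlation over genes with the other minor trauma arrays was 0.945 to 0.950, against 0.978 between those 2 and 0.975 to 0.979 within the shock group, and limma gave it a weight of 0.177, the lowest of the 20. Counts of list members are therefore given with and without it. The array labelled control 5 was most like minor trauma 2 (correlation 0.983) and lay at minor trauma levels for several genes below. The Dap spike-in, an added bacterial RNA, was bright on minor trauma arrays 1 and 3 and shock arrays 2 and 3 and near 0 on minor trauma array 2 and shock arrays 1 and 4. The log2 ratio of 3' to 5' signal of Gapdh is a sign of RNA integrity. It ran from -0.51 to -0.35 in minor trauma and from -0.37 to -0.18 in shock (exact permutation test, two-sided p = 0.257). For beta-actin it ran from 0.66 to 0.78 in minor trauma and from 0.77 to 0.90 in shock (exact permutation test, two-sided p = 0.0857).

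Of 12832 genes tested, 536 (4.18%) were higher and 690 (5.38%) lower in shock than in minor trauma at an adjusted p of at most 0.05, by limma's moderated test adjusted over all genes. A gene past this threshold is called higher or lower. Counts of list members below are to be read beside these shares of all genes. Among them 232 were higher and 152 lower by at least 2-fold. Without minor trauma array 3, 363 (2.84%) of 12771 genes were higher and 378 (2.96%) lower, and 590 genes were called both ways, each in the same direction. They are 48.1% of the first and 79.6% of the second set. All shock arrays lay above all minor trauma arrays for 1288 genes (10.0%) and below them for 1631 (12.7%), and so did 510 of the 536 genes higher and 661 of the 690 lower. With the Dap set as a block 1148 genes were called, within the arrays that hold the spike-in 251, and within those that lack it, where a single minor trauma array remains, 3. The split of calls depends on scaling: 43.7% were higher after quantile normalization, 25.2% after median centring and 32.8% with no scaling, which moved the median change of all genes to -0.128 and -0.225 from -0.017. None of the 214 called genes that were list members or named by rule changed sign under these scalings. The shifts are small beside most called changes, so kept signs were likely in advance and do not bear on the dependence on scaling. Of 1109 other probe sets for 634 called genes, 342 were called the same way and 3 the opposite way (Ddhd2, Rora and Wdr33). In the plot of both estimates for each called gene, points lie along the diagonal.

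**Figure D1:**
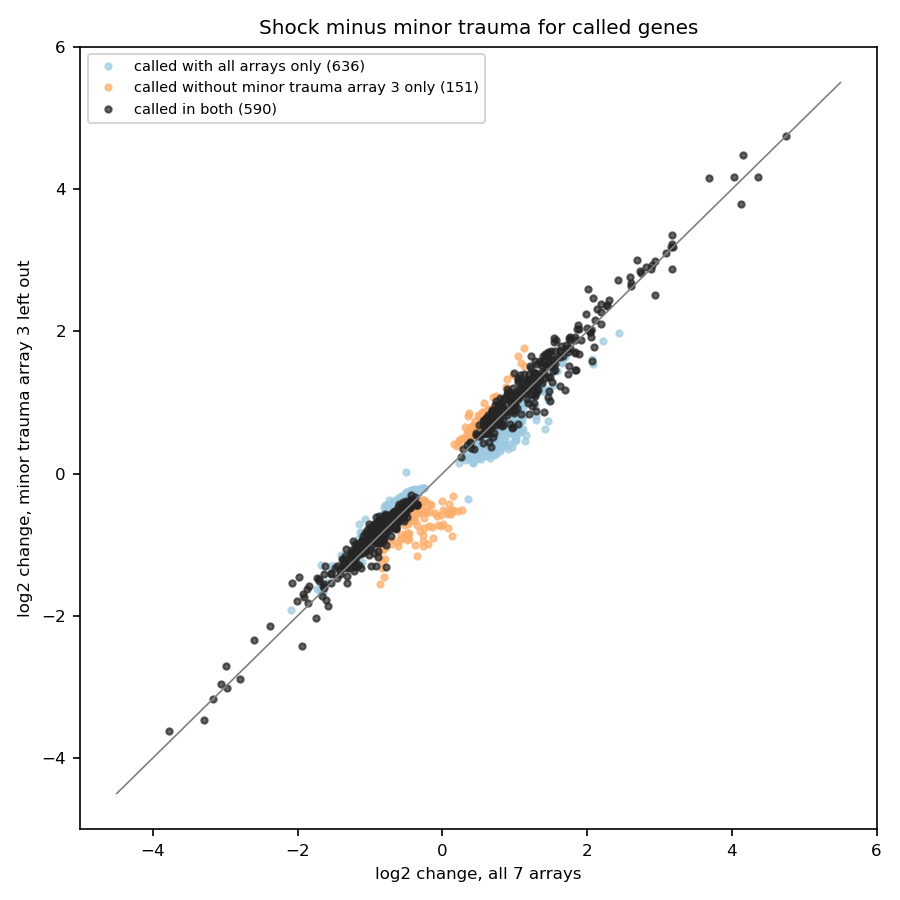
Log2 change between shock and minor trauma for each called gene, estimated with all 7 arrays (x axis) and with minor trauma array 3 left out (y axis); the line marks equal values. The largest increase and the largest decrease are among the 590 genes called in both estimates. The 636 called with all arrays only include large changes too, such as those of Ankrd37 and Sult1e1, and 151 were called without the array only.

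The largest increases in shock were those of Atf3, Cxcl2, Egr1, Il6 and Fos, and the largest decreases those of Lcn2, Nrg4, Inhbe, Gnat1 and Cxcl13. The 12 genes with the largest change in each direction are drawn in the panels of single arrays. Changes are given as shock minus minor trauma, in log2 units ± standard error. The means are those of 3 and 4 arrays, and the spread is taken from all 20. A fold in brackets stands on the log2(signal + 6) scale and understates the change of dim genes. "At least" marks a gene no brighter than the array median on any array of the lower group. Minor trauma and shock levels against control are given side by side as values, because both share the control arrays.

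**Figure D2:**
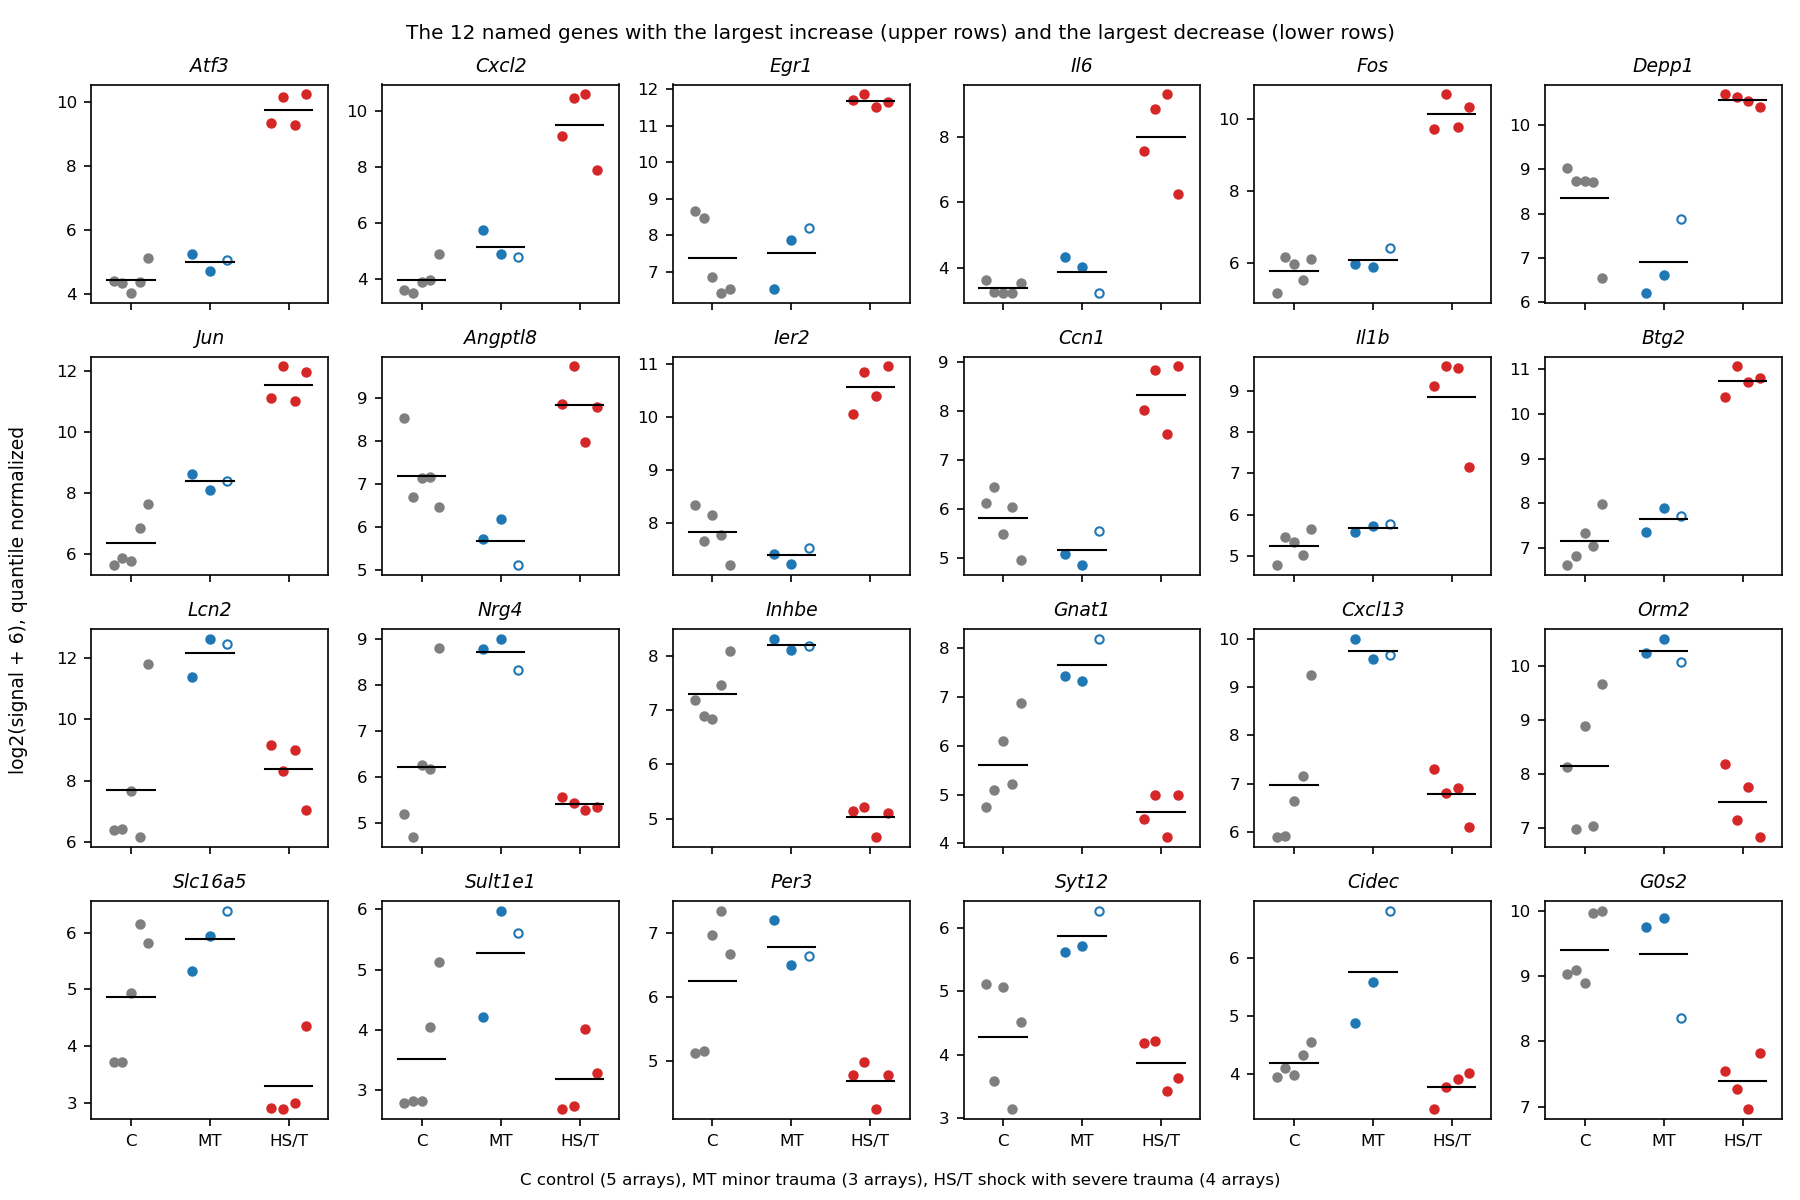
Level of each gene, as log2(signal + 6) after quantile normalization, on every control (C), minor trauma (MT) and shock with severe trauma (HS/T) array; bars are group means and the open circle is minor trauma array 3. In the upper 2 rows every shock array lies above every minor trauma array, and in the lower 2 rows every shock array lies below.

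AP-1 transcription factors, dimers of Fos, Jun and ATF proteins, were the list with the highest median change. The lists were chosen with earlier results of these data known, so ranks among lists can partly reflect that choice. Of the AP-1 list 7 of 11 tested members were higher and 0 lower with all arrays (7 and 0 without minor trauma array 3; median 1.43 and 1.54), beside medians of -0.02 and 0.01 over all genes tested. Atf3, a stress-induced repressor of the ATF family, read 5.25, 4.72 and 5.05 in minor trauma and 9.35, 10.16, 9.27 and 10.24 in shock. Fos read 5.98, 5.90 and 6.40 in minor trauma and 9.73, 10.68, 9.79 and 10.32 in shock, and Jun 8.64, 8.10 and 8.41 in minor trauma and 11.11, 12.16, 11.03 and 11.96 in shock. For all 3 genes no shock array came near a minor trauma array, and shock lay above every control array too. The changes were 4.75 ± 0.28 (26.9-fold, adjusted p = 1.4e-09), 4.04 ± 0.29 (16.4-fold, adjusted p = 4.6e-08) and 3.18 ± 0.46 (9.07-fold, adjusted p = 0.00034). Against control, Atf3 was 0.56 in minor trauma and 5.30 in shock, Fos 0.31 and 4.34, and Jun 2.02 and 5.21, and of the 3 Jun alone had every minor trauma array above every control array. Smaller increases were those of Maff, 2.61 ± 0.47 (6.1-fold, adjusted p = 0.00195), a small Maf protein that pairs with other leucine zipper factors, Junb, 1.67 ± 0.25 (3.18-fold, adjusted p = 0.00036), Jund, 1.43 ± 0.14 (2.69-fold, adjusted p = 2.5e-06), and Jdp2, 0.93 ± 0.26 (1.9-fold, adjusted p = 0.0302), a repressing partner of Jun. Fosb (0.57), Fosl1 (-0.17), Fosl2 (0.20) and Batf (0.40) did not pass the test. The threshold was missed for Jdp2 without minor trauma arrays 1 or 2 or shock arrays 1, 2 or 3 (adjusted p 0.0711 to 0.0841).

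Other immediate early genes were higher in part. In the list of Egr, Nr4a, Ier and related genes, 13 of 30 tested members were higher and 1 lower with all arrays (14 and 0 without minor trauma array 3; median 0.75 and 0.95). Egr1, a zinc finger factor induced by growth and stress signals, read 6.52, 7.86 and 8.19 in minor trauma and 11.71, 11.86, 11.52 and 11.64 in shock. Ier2, a short-lived nuclear protein, read 7.42, 7.23 and 7.53 in minor trauma and 10.05, 10.85, 10.40 and 10.95 in shock. Btg2, an antiproliferative cofactor that promotes mRNA deadenylation, read 7.36, 7.89 and 7.71 in minor trauma and 10.38, 11.06, 10.70 and 10.80 in shock. The shock arrays of each gene lay in a narrow band well above both other groups, with Egr1 the most variable in minor trauma. The changes were 4.16 ± 0.49 (17.8-fold, adjusted p = 2.6e-05), 3.17 ± 0.28 (9-fold, adjusted p = 3.8e-07) and 3.08 ± 0.23 (8.48-fold, adjusted p = 5.9e-08). Nr4a1, an orphan nuclear receptor that acts on hepatic glucose output, changed by 2.74 ± 0.24 (6.68-fold, adjusted p = 3.8e-07), Ccn1, a matrix protein under YAP and serum response factor, by 3.17 ± 0.37 (9-fold, adjusted p = 2.3e-05), and Zfp36 (tristetraprolin), which destroys cytokine mRNAs, by 2.28 ± 0.28 (4.86-fold, adjusted p = 3.7e-05). Increases were also called for Ier3 (2.31), Rgs1 (2.04), Rgs2 (1.71), Egr2 (1.53), Btg1 (1.04), Csrnp1 (0.99) and Plk2 (0.95). Ccn2, a relative of Ccn1, was lower, -1.15 ± 0.36 (2.22-fold, adjusted p = 0.0495), and read 7.16, 7.69 and 8.74 in minor trauma and 6.75, 6.39, 6.61 and 7.08 in shock, the third minor trauma array being the highest. Myc (0.58), Nr4a3 (0.89), Nr4a2 (0.14), Ier5 (0.27) and Egr3 (0.30) did not pass the test. Rgs16, a brake on G protein signalling, was at 1.89 ± 0.63 (3.71-fold, adjusted p = 0.0623, not called). Significance was lost for Ccn2 without minor trauma arrays 2 or 3 or shock arrays 1, 2, 3 or 4 (adjusted p 0.0525 to 0.284, change -0.71 without minor trauma array 3) and Plk2 without minor trauma array 2 or shock array 4 (adjusted p 0.0506 to 0.0793).

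Promoter sequence gives context for these genes, because cAMP response elements bind CREB and ATF factors and serum response elements bind SRF. RefSeq windows of 250 bases before to 50 after each annotated start (GRCm38.p6) were searched on both strands for the cAMP response element TGACGTCA, the AP-1 site TGACTCA, the E-box CACGTG and, by name, the serum response element and the NF-kB site. No site of these lengths holds another of them. Of 29 windows for the 21 of 30 immediate early genes with an entry, 6 (20.7%) held a serum response element and 3 (10.3%) a cAMP response element, against 1.63% and 1.79% of all 32851 windows and 1.3% and 2.77% of the 13199 windows of tested genes. The list was chosen for genes of the early response, so its shares are no result of these arrays. Among the 251 windows of genes higher by at least 2-fold the shares were 3.19% and 2.79%. No AP-1 site was found in the 14 windows of the AP-1 list, against 5.2% of all. A match is a run of letters and was not tested as a binding site. Shown are the upstream bases of 3 genes called with and without the outlying array, each from 20 bases before its motif to the base before the start, 5' to 3' on the gene's strand, with the motif in capitals (cAMP response element in Btg2 and Dusp1, serum response element in Zfp36).
Btg2 (chr1:134079156-134079341, minus strand): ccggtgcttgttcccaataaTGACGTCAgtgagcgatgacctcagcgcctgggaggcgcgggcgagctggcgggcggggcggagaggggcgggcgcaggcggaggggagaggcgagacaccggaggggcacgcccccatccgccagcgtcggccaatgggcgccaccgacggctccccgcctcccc
Dusp1 (chr17:26508473-26508635, minus strand): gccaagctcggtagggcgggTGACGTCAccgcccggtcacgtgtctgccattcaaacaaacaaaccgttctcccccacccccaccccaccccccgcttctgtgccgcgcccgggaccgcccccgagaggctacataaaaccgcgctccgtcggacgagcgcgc
Zfp36 (chr7:28379229-28379306, minus strand): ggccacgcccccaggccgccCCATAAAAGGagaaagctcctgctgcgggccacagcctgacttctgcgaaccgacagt

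Kruppel-like factors and phosphatases that switch off MAP kinases were higher in part. Of the Kruppel-like factors 5 of 10 tested members were higher and 0 lower with all arrays (5 and 0 without minor trauma array 3; median 0.47 and 0.54). Klf4 and Klf2, which keep endothelium quiescent, changed by 1.74 ± 0.30 (3.34-fold, adjusted p = 0.00116) and 1.19 ± 0.31 (2.29-fold, adjusted p = 0.0186), Klf10, a TGF-beta-induced repressor, by 1.55 ± 0.35 (2.93-fold, adjusted p = 0.00784), and Klf6, an injury-induced factor, by 1.22 ± 0.18 (2.34-fold, adjusted p = 0.00036). Klf9, a glucocorticoid target, changed by 0.50 ± 0.11 (1.42-fold, adjusted p = 0.00588). Among dual-specificity phosphatases 3 of 10 tested members were higher and 0 lower with all arrays (3 and 0 without minor trauma array 3; median 0.73 and 0.75). Dusp1 read 8.94, 8.68 and 9.35 in minor trauma and 11.30, 11.99, 11.22 and 11.81 in shock, above every control array on each shock array, and changed by 2.59 ± 0.26 (6.02-fold, adjusted p = 4.2e-06). Dusp6, which inactivates ERK, changed by 1.35 ± 0.30 (2.55-fold, adjusted p = 0.00761) and Dusp16 by 0.58 ± 0.14 (1.5-fold, adjusted p = 0.0115). Of the Gadd45 and p53 target list 3 of 15 tested members were higher and 2 lower with all arrays (3 and 1 without minor trauma array 3; median 0.37 and 0.61). Gadd45a, a growth arrest gene, changed by 1.83 ± 0.33 (3.55-fold, adjusted p = 0.00195) and Trp53inp1, an autophagy-linked p53 target, by 2.07 ± 0.34 (4.21-fold, adjusted p = 0.00084). Gadd45b read 7.31, 8.47 and 7.52 in minor trauma and 9.88, 10.21, 9.81 and 10.08 in shock with controls from 2.85 to 7.43, and its change was 2.23 ± 0.74 (4.68-fold, adjusted p = 0.0593, not called). The death receptor gene Fas was lower, -1.21 ± 0.26 (2.31-fold, adjusted p = 0.00609), and was 1.12 in minor trauma and -0.08 in shock against control. The call did not hold for Klf2 without minor trauma array 2 or shock arrays 2 or 4 (adjusted p 0.0614 to 0.0908). Taken as the median over probe sets, Klf6 was at 0.76 (adjusted p = 0.0225) and Klf9 at 0.95 (adjusted p = 0.00222).

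Chemokines and cytokines were higher in shock in part, with large differences between shock arrays. Of the chemokines 4 of 23 tested members were higher and 1 lower with all arrays (3 and 1 without minor trauma array 3; median 0.38 and 0.29). Cxcl2, which draws neutrophils, read 5.78, 4.91 and 4.82 in minor trauma and 9.14, 10.47, 10.60 and 7.91 in shock. Il6, the main inducer of the acute phase response, read 4.32, 4.03 and 3.22 in minor trauma and 7.56, 8.84, 9.29 and 6.24 in shock. Il1b, the inflammasome-processed interleukin, read 5.58, 5.72 and 5.77 in minor trauma and 9.10, 9.58, 9.55 and 7.16 in shock. In all 3, shock array 4 was the lowest of the shock arrays yet above every minor trauma and control array. The changes were 4.36 ± 0.48 (20.6-fold, adjusted p = 1.2e-05), 4.13 ± 0.51 (at least 10.4-fold, adjusted p = 4e-05) and 3.16 ± 0.44 (8.94-fold, adjusted p = 0.0002). Ccl3, a monocyte chemokine, read 5.06, 3.21 and 2.93 in minor trauma and 6.85, 7.95, 7.96 and 3.91 in shock, so that shock array 4 fell within the minor trauma range, and changed by 2.93 ± 0.65 (7.63-fold, adjusted p = 0.00721). Its neighbour Ccl4 changed by 2.04 ± 0.42 (4.12-fold, adjusted p = 0.00424). Of the cytokine list 7 of 26 tested members were higher and 2 lower with all arrays (8 and 1 without minor trauma array 3; median 0.33 and 0.44). Il10, which restrains macrophages, changed by 2.60 ± 0.39 (at least 4.86-fold, adjusted p = 0.00039), Tnf by 2.20 ± 0.39 (at least 1.7-fold, adjusted p = 0.0017), the costimulatory ligand Tnfsf9 by 2.09 ± 0.44 (at least 1.83-fold, adjusted p = 0.00484) and Il1a by 1.56 ± 0.38 (2.95-fold, adjusted p = 0.013). Tnf and Tnfsf9 were dim, and array 4 was the lowest of the shock arrays for each. Cxcl1, another neutrophil chemokine, was bright in both groups, read 11.36, 11.77 and 11.46 in minor trauma and 11.94, 11.62, 11.57 and 9.42 in shock and did not pass the test (-0.39); controls 1 to 4 lay at 8.30 or less and control 5 at 11.50. The homeostatic B cell chemokine Cxcl13 went the other way, reading 10.01, 9.58 and 9.67 in minor trauma and 7.31, 6.80, 6.91 and 6.10 in shock, -2.98 ± 0.56 (7.87-fold, adjusted p = 0.00252). Lower too was Osmr, the oncostatin M receptor, -1.01 ± 0.24 (2.01-fold, adjusted p = 0.0112). With 1 array left out, the call was lost for Il1a without shock array 2 (adjusted p 0.0516). By the median of all its probe sets Osmr was at -0.18 (adjusted p = 0.707, not called).

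**Figure D3:**
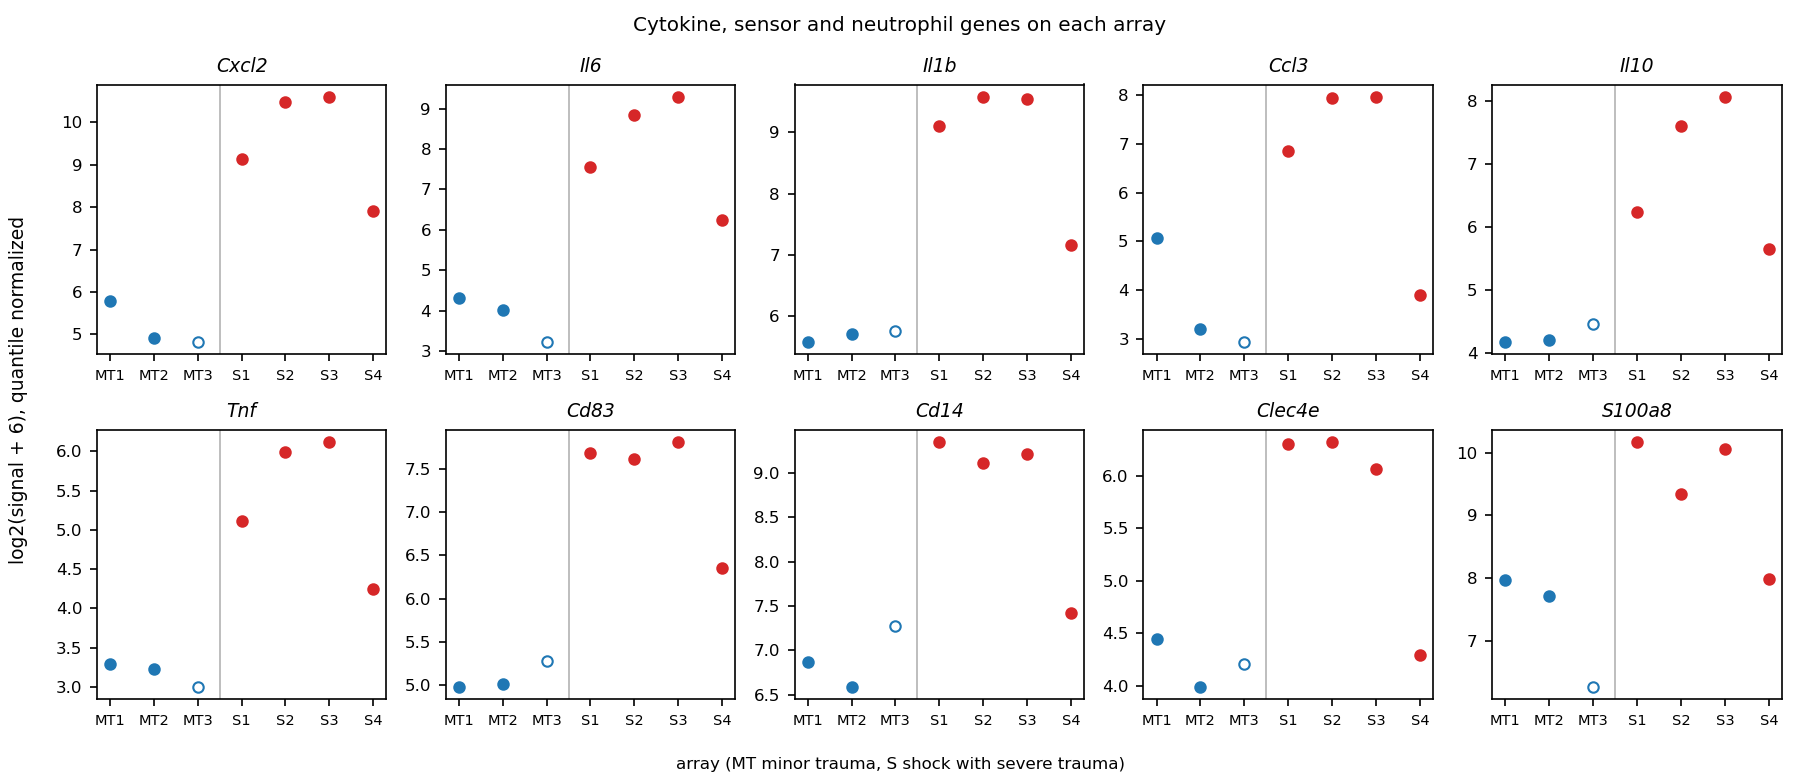
Levels of 10 cytokine, sensor and neutrophil genes, as log2(signal + 6) after quantile normalization, on each minor trauma (MT1 to MT3, open circle MT3) and shock (S1 to S4) array. Shock array 4 is the lowest shock array in every panel and lies within the minor trauma range for Ccl3 and Clec4e.

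NF-kB feedback and pattern recognition genes were divided. Of NF-kB subunits, inhibitors and feedback genes 6 of 22 tested members were higher and 2 lower with all arrays (3 and 1 without minor trauma array 3; median 0.13 and 0.29). Cd83, a maturation marker of antigen-presenting cells, read 4.98, 5.01 and 5.28 in minor trauma and 7.68, 7.61, 7.81 and 6.35 in shock and changed by 2.27 ± 0.29 (4.84-fold, adjusted p = 7.2e-05). Nfkbia, the inhibitor IkB-alpha that NF-kB itself induces, changed by 0.88 ± 0.14 (1.83-fold, adjusted p = 0.00054), with 4 of 4 other probe sets called the same way, and the subunit gene Rel by 1.22 ± 0.33 (2.34-fold, adjusted p = 0.0208). Nfkbiz and the deubiquitinase gene Tnfaip3 were called with all arrays, 1.43 ± 0.33 (2.69-fold, adjusted p = 0.00868) and 1.31 ± 0.39 (2.48-fold, adjusted p = 0.0376). Nfkbib (-0.65) and Bcl3 (-0.98), further inhibitor-family genes, were lower. Among Toll-like receptor and pattern-sensing genes 2 of 24 tested members were higher and 4 lower with all arrays (2 and 2 without minor trauma array 3; median -0.12 and -0.20). Cd14, the lipopolysaccharide co-receptor, read 6.87, 6.59 and 7.27 in minor trauma and 9.35, 9.11, 9.21 and 7.42 in shock, again with array 4 lowest, and changed by 1.86 ± 0.33 (3.64-fold, adjusted p = 0.00152). The kinase gene Irak2 changed by 0.98 ± 0.18 (1.97-fold, adjusted p = 0.00209). The adaptor Myd88 was lower, -1.10 ± 0.21 (2.14-fold, adjusted p = 0.00299), as was the inhibitory kinase-like Irak3, -1.26 ± 0.28 (at least 1.62-fold, adjusted p = 0.00655). Tlr2 (-0.43), Tlr4 (-0.11) and Tlr9 (-0.12) did not pass the test. The adjusted p passed 0.05 for Rel without minor trauma array 1 or shock arrays 2 or 3 (adjusted p 0.0501 to 0.112, change 0.77 without minor trauma array 1), Nfkbiz without minor trauma array 3 (adjusted p 0.0592) and Tnfaip3 without minor trauma arrays 2 or 3 or shock arrays 1, 2 or 3 (adjusted p 0.0645 to 0.114). Likewise it was lost for Bcl3 without minor trauma arrays 2 or 3 or shock arrays 2, 3 or 4 (adjusted p 0.0737 to 0.145). With probe sets combined by their median, Tnfaip3 was at 0.70 (adjusted p = 0.218, not called) and Nfkbib at -0.64 (adjusted p = 0.0601, not called).

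NF-kB sites are given for the cytokine genes with the largest change. Of all windows 8.46% held an NF-kB site, 10.2% of the 13199 windows of tested genes and 11.6% of the 251 windows of genes higher by at least 2-fold. Upstream bases are shown for Cxcl2, from 20 bases before the site to the base before the start, and for Il6, the whole 250 bases. Capitals mark the NF-kB site in both and, at the 5' end of the Il6 window, an AP-1 site.
Cxcl2 (chr5:90903782-90903898, plus strand): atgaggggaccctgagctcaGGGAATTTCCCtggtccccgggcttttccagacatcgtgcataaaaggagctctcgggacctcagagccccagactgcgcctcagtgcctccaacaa
Il6 (chr5:30012864-30013113, plus strand): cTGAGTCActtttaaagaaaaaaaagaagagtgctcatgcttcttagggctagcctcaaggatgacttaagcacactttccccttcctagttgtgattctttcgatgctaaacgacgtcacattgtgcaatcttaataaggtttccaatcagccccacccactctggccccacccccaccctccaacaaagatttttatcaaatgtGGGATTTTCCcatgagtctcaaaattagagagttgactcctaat

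Neutrophil markers were called in both directions. Of 14 neutrophil markers tested, 3 were higher and 1 lower with all arrays, and none was called without minor trauma array 3. S100a8, a calcium-binding protein that makes up much of neutrophil cytosol, read 7.97, 7.72 and 6.26 in minor trauma and 10.18, 9.34, 10.05 and 7.98 in shock with controls from 3.76 to 7.53. Its change was 2.08 ± 0.64 (4.22-fold, adjusted p = 0.0431), and 1.54 (adjusted p = 0.215) without the array. S100a9, its partner, changed by 2.07 ± 0.58 (4.2-fold, adjusted p = 0.0268), and the C-type lectin gene Clec4e by 1.53 ± 0.43 (at least 2.21-fold, adjusted p = 0.0282), with shock array 4 within the minor trauma range for both. Granule genes were dim, Elane at 4.2, 3.97 and 4.47 in minor trauma and 4.31, 3.68, 4.36 and 4.38 in shock and Mpo at 4.25, 4.74 and 4.70 in minor trauma and 4.49, 4.10, 4.47 and 4.55 in shock, beside an array median of 4.60. The change was 0.66 for Mmp8, 0.61 for Mmp9 and 0.40 for Ngp, none of them called. The member called lower was Chil3 (-1.20), and 9 of the 14 changes were positive. Over the neutrophil markers the mean level ran from 4.46 to 5.24 on the control arrays, from 5.32 to 5.70 on the minor trauma arrays and from 5.30 to 6.46 on the shock arrays. Shock array 4, at the lower end, was also the lowest for the cytokines above, and the part of these cells in the cytokine differences was not tested. In whole liver more cells of a type and more RNA per cell cannot be told apart. The call was lost for S100a8 without minor trauma array 3 or shock arrays 1, 2 or 3 (adjusted p 0.0821 to 0.215), S100a9 without minor trauma array 3 or shock arrays 1, 2 or 3 (adjusted p 0.0555 to 0.146) and Clec4e without minor trauma arrays 2 or 3 or shock arrays 1, 2 or 3 (adjusted p 0.0667 to 0.0888).

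Markers of resident and other cells were called in part, beside 4.18% higher and 5.38% lower over all genes tested. A single called member of a short list is near these shares and does not set a cell type apart. Of 15 Kupffer cell and macrophage markers 1 was higher and 1 lower with all arrays (2 and 1 without minor trauma array 3). The mannose receptor gene Mrc1 changed by 0.69 ± 0.14 (1.62-fold, adjusted p = 0.0039), and the scavenger receptor gene Marco read 8.14, 7.22 and 7.75 in minor trauma and 6.01, 6.52, 5.83 and 5.02 in shock, -1.86 ± 0.40 (3.62-fold, adjusted p = 0.0064). Clec4f (0.38), Vsig4 (0.29), Timd4 (-0.04) and Adgre1 (0.15) did not pass the test with all arrays. None of 20 endothelial markers was called at adjusted p of at most 0.05, and 1 passed an unadjusted p of 0.05. Of 16 stellate cell and fibroblast markers 4 were higher and 0 lower with all arrays (3 and 0 without minor trauma array 3). Their mean level ran from 6.83 to 7.19 on the control arrays, from 6.83 to 7.03 in minor trauma and from 7.33 to 7.41 in shock. Shock thus lay above both other groups, which overlapped each other. The part of these cells in other differences was not tested. Lrat, which stores retinol as esters, changed by 1.83 ± 0.33 (3.55-fold, adjusted p = 0.00184), Acta2 by 0.68 ± 0.20 (1.61-fold, adjusted p = 0.0365), Col3a1 by 1.33 ± 0.35 (2.52-fold, adjusted p = 0.0198) and Lum by 0.93 ± 0.21 (1.91-fold, adjusted p = 0.00721). No marker of cholangiocytes, T and NK cells, B cells, dendritic cells, erythroid cells or platelets was called among 4, 9, 9, 9, 3 and 7 tested. Of 8 monocyte markers Chil3, dim and also in the neutrophil list, was lower with all arrays (-1.20). Of 14 hepatocyte markers 1 was lower, the nuclear receptor gene Hnf4a, -0.49 ± 0.12 (1.41-fold, adjusted p = 0.0148). The threshold was missed for Acta2 without minor trauma arrays 1 or 2 or shock arrays 1, 2, 3 or 4 (adjusted p 0.0519 to 0.098), Col3a1 without minor trauma arrays 2 or 3 or shock array 1 (adjusted p 0.0538 to 0.0664) and Lum without minor trauma array 3 (adjusted p 0.0506). Likewise it was lost for Hnf4a without minor trauma array 3 or shock array 2 (adjusted p 0.0516 to 0.0772) and Chil3 without minor trauma arrays 1 or 3 or shock arrays 1, 2, 3 or 4 (adjusted p 0.0644 to 0.158). As the median of its probe sets Hnf4a was at -0.47 (adjusted p = 0.0968, not called).

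Acute phase genes were lower in shock in part. Of 30 tested, 1 was higher and 11 lower with all arrays (1 and 6 without minor trauma array 3), with medians of -0.30 and -0.37. The member called higher was Cd14. Lcn2, the iron-scavenging lipocalin 2, read 11.37, 12.62 and 12.44 in minor trauma and 9.16, 8.30, 8.99 and 7.04 in shock. Orm2, an orosomucoid, read 10.23, 10.51 and 10.07 in minor trauma and 8.19, 7.14, 7.76 and 6.82 in shock. Apcs, serum amyloid P, read 11.98, 12.36 and 12.02 in minor trauma and 11.12, 10.63, 10.77 and 10.84 in shock. For each gene every shock array lay below every minor trauma array. The changes were -3.77 ± 0.90 (13.6-fold, adjusted p = 0.0108), -2.80 ± 0.46 (6.95-fold, adjusted p = 0.00089) and -1.28 ± 0.28 (2.43-fold, adjusted p = 0.00697). Without the outlying array Lcn2 was at -3.62 (adjusted p = 0.0459). Against control, Lcn2 was 4.46 in minor trauma and 0.69 in shock, Orm2 2.14 and -0.66, and Apcs 1.18 and -0.10. Control array 5 read 11.78 for Lcn2, and the other controls 7.67 or less. Further decreases were those of Orm3 (-1.75), Steap4 (-1.61), Serpina3n (-1.37), Saa4 (-0.86), Lbp (-0.84), Itih3 (-0.45), Itih4 (-0.47) and Crp (-0.38). Saa2, an apolipoprotein induced strongly by interleukin 6, read 12.78, 12.88 and 12.71 in minor trauma and 11.74, 9.84, 11.29 and 8.22 in shock and missed the threshold, -2.51 ± 0.84 (5.71-fold, adjusted p = 0.0627, not called). Hp (-0.03), Fgb (-0.24), Hamp (-0.12) and Ahsg (0.03) did not pass the test. Of 17 STAT3 and SOCS genes 1 was higher and 1 lower with all arrays (0 and 1 without minor trauma array 3). Stat3, the factor through which interleukin 6 acts on acute phase genes, was lower, -1.15 ± 0.22 (2.22-fold, adjusted p = 0.00254), with 1.06 in minor trauma and -0.09 in shock against control. Jak2, a kinase of the same pathway, was higher, 0.98 ± 0.24 (1.97-fold, adjusted p = 0.013). The feedback inhibitor Socs3 read 8.17, 9.19 and 8.85 in minor trauma and 10.80, 10.17, 10.20 and 7.89 in shock, 1.03 ± 0.59 (2.04-fold, adjusted p = 0.282, not called). The zinc importer gene Slc39a14, another acute phase gene, was lower, -1.12 ± 0.31 (2.18-fold, adjusted p = 0.0269), while Mt1 (-0.15) and Mt2 (-0.10), the metallothioneins, did not pass the test. Significance was lost for Orm3 without minor trauma array 1 or shock array 2 (adjusted p 0.0522 to 0.0526), Steap4 without minor trauma arrays 2 or 3 or shock arrays 2 or 4 (adjusted p 0.0632 to 0.0942) and Serpina3n without minor trauma array 3 or shock array 4 (adjusted p 0.0515 to 0.0663). It was also lost for Saa4 without minor trauma arrays 1 or 3 or shock arrays 2 or 4 (adjusted p 0.061 to 0.0836), Lbp without minor trauma array 3 (adjusted p 0.0621) and Itih3 without minor trauma array 3 or shock array 2 (adjusted p 0.0542 to 0.0876). The same held for Crp without minor trauma array 1 (adjusted p 0.0502), Slc39a14 without minor trauma array 3 or shock arrays 1, 2 or 4 (adjusted p 0.0513 to 0.118) and Jak2 without minor trauma array 3 (adjusted p 0.0849, change 0.55). Taken as the median over probe sets, Stat3 was at -0.14 (adjusted p = 0.704, not called) and Slc39a14 at -0.31 (adjusted p = 0.545, not called).

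Clock, junction and acute phase genes differed among control arrays as well as between groups, as the panels of these genes show.

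**Figure D4:**
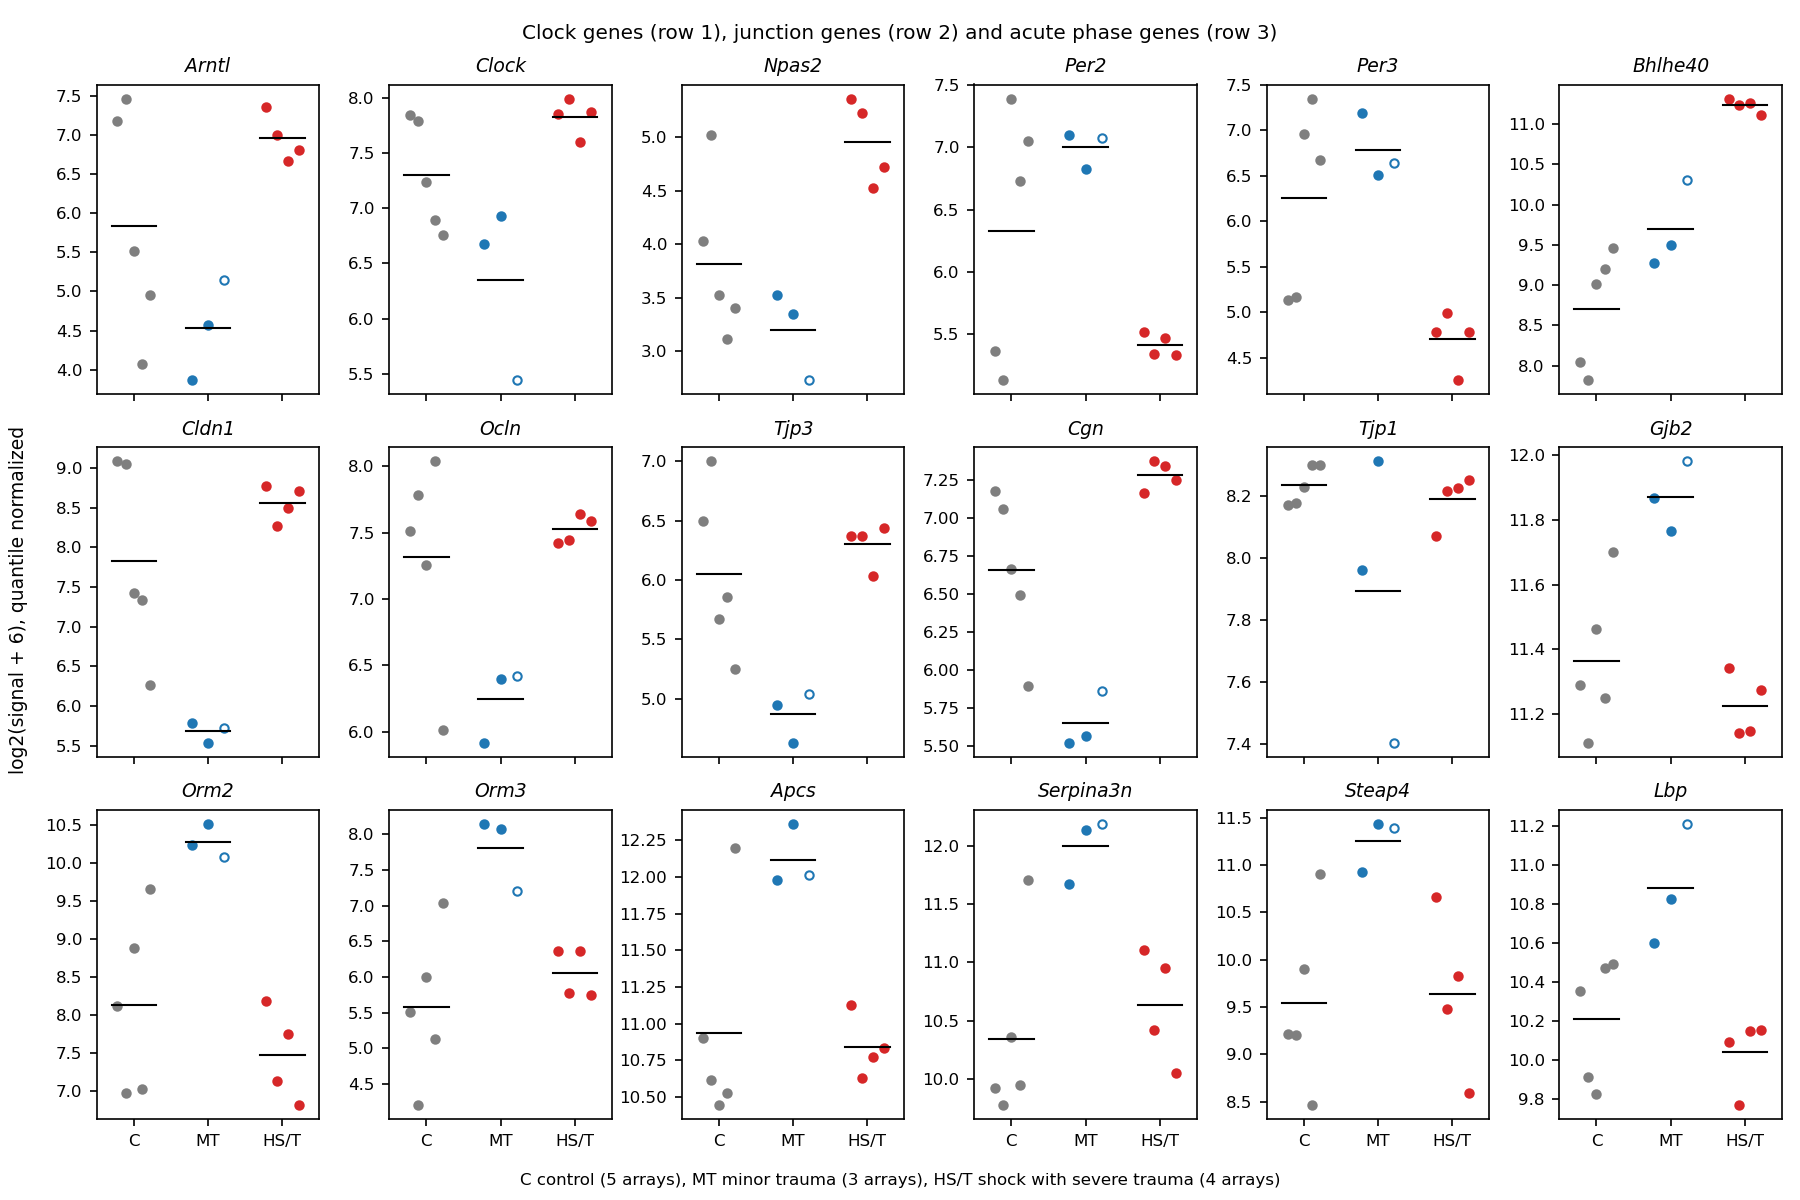
Levels of 6 clock genes (top row), 6 junction genes (middle row) and 6 acute phase genes (bottom row), as log2(signal + 6) after quantile normalization, on control (C), minor trauma (MT, open circle array 3) and shock (HS/T) arrays, with group means as bars. Shock arrays lie close together for Per2, Cldn1 and Cgn, and control arrays spread over much of the distance between the other groups.

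Core clock genes changed in opposite directions. The liver clock runs on Arntl and Clock or Npas2, which activate the Per, Cry, Nr1d and Dbp genes that in turn repress them. Of 21 clock genes, 5 were higher and 3 lower with all arrays (5 and 1 without minor trauma array 3). Arntl read 3.87, 4.57 and 5.15 in minor trauma and 7.36, 6.99, 6.66 and 6.81 in shock. Per3 read 7.19, 6.51 and 6.64 in minor trauma and 4.79, 4.99, 4.25 and 4.78 in shock, and Per2 7.10, 6.83 and 7.07 in minor trauma and 5.51, 5.34, 5.47 and 5.33 in shock. The groups did not overlap for any of these, Arntl being high and the Per genes low in shock. The changes were 2.43 ± 0.56 (5.38-fold, adjusted p = 0.00931), -2.08 ± 0.41 (4.22-fold, adjusted p = 0.00354) and -1.59 ± 0.39 (3.01-fold, adjusted p = 0.0141). Clock changed by 1.48 ± 0.29 (2.8-fold, adjusted p = 0.00298), Npas2 by 1.75 ± 0.38 (at least 1.28-fold, adjusted p = 0.00612) and Bhlhe40, a repressor that hypoxia also induces, by 1.54 ± 0.35 (2.9-fold, adjusted p = 0.00878). The D-box activator Tef was lower, -0.99 ± 0.26 (1.98-fold, adjusted p = 0.0212), and Dbp read 9.59, 8.40 and 9.18 in minor trauma and 6.18, 7.03, 6.82 and 7.83 in shock, -2.09 ± 0.68 (4.26-fold, adjusted p = 0.0555, not called). Nr1d1, which represses Arntl, was at 1.11 ± 0.37 (2.15-fold, adjusted p = 0.0601, not called), and Cry1 (-0.37) and Per1 (-0.03) did not pass the test. Control arrays spanned 4.07 to 7.46 for Arntl and 5.13 to 7.35 for Per3, with controls 1 and 2 nearer the shock arrays and controls 4 and 5 nearer the minor trauma arrays for both. The labels give no time of day, so that the hour of sampling and the injury cannot be told apart here. Of 26 windows of clock genes 6 (23.1%) held the E-box CACGTG, against 7.15% of all windows and 9.74% of the windows of tested genes. The share was 10.5% for genes higher and 12.3% for genes lower. The list was chosen for clock genes, so its own share is no result of these arrays. Where leaving out minor trauma array 1, 2 or 3, shock array 1 or control 5 made another probe set of Per3 the brightest, its change was -1.13 to -1.54, and with the probe set kept it was -1.86 to -2.21 in the same fits. The call did not hold for Per2 without minor trauma array 3 (adjusted p 0.051) and Tef without minor trauma arrays 1 or 3 or shock arrays 1 or 2 (adjusted p 0.0553 to 0.0743). By the median of all their probe sets Arntl was at 1.22 (adjusted p = 0.0354), Clock at 0.79 (adjusted p = 0.0347), Per2 at -0.80 (adjusted p = 0.0496) and Tef at -0.11 (adjusted p = 0.862, not called).

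Tight junction genes were higher in shock in part. Of 17 tight and gap junction genes, 4 were higher and 1 lower with all arrays (4 and 1 without minor trauma array 3). Cldn1, a sealing claudin of the bile canaliculus, read 5.79, 5.54 and 5.72 in minor trauma and 8.77, 8.27, 8.49 and 8.70 in shock. Cgn, the adaptor cingulin, read 5.52, 5.57 and 5.87 in minor trauma and 7.17, 7.38, 7.34 and 7.25 in shock, and Ocln, occludin, 5.92, 6.40 and 6.42 in minor trauma and 7.42, 7.44, 7.64 and 7.59 in shock. Shock arrays were tightly grouped above the minor trauma arrays in all 3. The changes were 2.88 ± 0.44 (7.35-fold, adjusted p = 0.00046), 1.63 ± 0.24 (3.1-fold, adjusted p = 0.00034) and 1.28 ± 0.30 (2.43-fold, adjusted p = 0.00917), and Tjp3, which encodes the scaffold ZO-3, changed by 1.43 ± 0.34 (2.7-fold, adjusted p = 0.0103). Against control, Cldn1 was -2.15 in minor trauma and 0.73 in shock, Cgn -1.01 and 0.62, and Ocln -1.07 and 0.20. Gjb2, the gap junction protein connexin 26, was lower, -0.65 ± 0.11 (1.57-fold, adjusted p = 0.00167), and Gjb1, connexin 32, at 0.09, Cldn2 at 0.11 and Tjp1 at 0.30 did not pass the test. Of 20 pericentral and Wnt target genes 4 were higher and 1 lower with all arrays (4 and 1 without minor trauma array 3). The members called include Cdh1 and Hal, which are known for periportal rather than pericentral expression. Lgr5, the R-spondin receptor, changed by 1.38 ± 0.30 (2.6-fold, adjusted p = 0.00617), Cdh1, E-cadherin, by 1.27 ± 0.36 (2.41-fold, adjusted p = 0.028), the chemotactic hepatokine gene Lect2 by 0.65 ± 0.14 (1.57-fold, adjusted p = 0.00636) and the histidine-degrading Hal by 0.57 ± 0.18 (1.49-fold, adjusted p = 0.0425). Axin2, a feedback inhibitor of Wnt signalling, was lower, -0.97 ± 0.22 (1.96-fold, adjusted p = 0.00779), with -0.23 in minor trauma and -1.21 in shock against control, while the pericentral genes Glul (0.10) and Cyp2e1 (0.00) did not pass the test. With 1 array left out, the call was lost for Cdh1 without minor trauma array 2 or shock arrays 1 or 3 (adjusted p 0.0647 to 0.0898) and Hal without minor trauma arrays 1 or 2 or shock arrays 1, 2, 3 or 4 (adjusted p 0.0575 to 0.122).

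Hypoxia-inducible genes were higher in part. Of 34 tested, 8 were higher and 0 lower with all arrays (6 and 0 without minor trauma array 3). Ddit4, an inhibitor of mTORC1 induced by hypoxia and glucocorticoids, read 7.53, 8.50 and 9.21 in minor trauma and 10.06, 11, 10.56 and 10.35 in shock. Egln3, the oxygen-sensing prolyl hydroxylase PHD3, read 6.95, 6.42 and 7.45 in minor trauma and 8.03, 8.07, 7.93 and 7.91 in shock, and the histone demethylase gene Kdm3a 6.96, 6.82 and 6.43 in minor trauma and 7.98, 8.12, 8.34 and 7.81 in shock. The groups did not overlap for these 3, and for Ddit4 minor trauma itself was 1.59 above control. The changes were 2.08 ± 0.37 (4.23-fold, adjusted p = 0.00167), 1.04 ± 0.22 (2.06-fold, adjusted p = 0.00535) and 1.33 ± 0.26 (2.51-fold, adjusted p = 0.00357). Bhlhe40, given above, Ndrg1, 0.90 ± 0.27 (1.86-fold, adjusted p = 0.0404), and the glucose transporter gene Slc2a1, 0.99 ± 0.26 (1.99-fold, adjusted p = 0.0207), were called as well. Ankrd37, a direct HIF target, changed by 2.44 ± 0.69 (at least 2.96-fold, adjusted p = 0.0292) with all arrays. Hilpda, a hypoxia-induced lipid droplet protein counted with the droplet genes, read 5.11, 5.52 and 5.48 in minor trauma and 7.04, 7.93, 7.86 and 6.66 in shock and changed by 2.0 ± 0.32 (4-fold, adjusted p = 0.00067). Classical HIF targets of metabolism and vessels did not pass the test, with Vegfa at 0.58, Ldha at -0.17, Pgk1 at -0.03, Bnip3 at -0.22 and Adm at 0.31. None of 16 glycolysis enzymes was called with all arrays and 1 was called without minor trauma array 3, and 3 passed an unadjusted p of 0.05. Of 24 glucocorticoid-responsive genes 5 were higher and 1 lower with all arrays, namely Ddit4, Klf9, Dusp1, Igfbp1 and Nr3c1 against Lcn2. Without minor trauma array 3 the counts were again 5 and 1, but not of the same genes, since Nr3c1 was not called there. Nr3c1, the glucocorticoid receptor gene, changed by 1.16 ± 0.30 (2.23-fold, adjusted p = 0.0179), whereas Tsc22d3 (0.67), Per1 and Fkbp5 (-1.17), common targets, did not pass the test. The adjusted p passed 0.05 for Ndrg1 without minor trauma arrays 1 or 2 or shock arrays 1, 2, 3 or 4 (adjusted p 0.0505 to 0.199, change 0.54 without minor trauma array 1), Slc2a1 without minor trauma arrays 1 or 2 or shock array 3 (adjusted p 0.0609 to 0.087) and Ankrd37 without minor trauma array 3 or shock arrays 1, 2 or 3 (adjusted p 0.0532 to 0.145). Likewise it was lost for Nr3c1 without minor trauma array 3 (adjusted p 0.0875, change 0.55). With probe sets combined by their median, Ndrg1 was at 0.67 (adjusted p = 0.106, not called) and Nr3c1 at 0.74 (adjusted p = 0.0448).

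Genes of fasting and cAMP signalling changed in both directions. Of 22 tested, 7 were higher and 3 lower with all arrays (6 and 2 without minor trauma array 3). Ppargc1a, the coactivator PGC-1alpha that drives gluconeogenesis, read 5.45, 5.33 and 5.14 in minor trauma and 6.80, 6.75, 7.02 and 6.89 in shock, and Pde4b, a phosphodiesterase that ends cAMP signals, 5.98, 5.91 and 4.79 in minor trauma and 7.15, 7.62, 7.94 and 6.94 in shock. Both were higher on every shock array than on any minor trauma array, and below every control array in minor trauma. The changes were 1.56 ± 0.28 (2.94-fold, adjusted p = 0.00184), with 3 of 4 other probe sets called the same way, and 1.85 ± 0.27 (3.6-fold, adjusted p = 0.00034). Ppargc1b changed by 1.41 ± 0.23 (2.66-fold, adjusted p = 0.00086), the insulin-restrained factor gene Foxo3 by 1.26 ± 0.28 (2.4-fold, adjusted p = 0.00681) and Igfbp1, which binds insulin-like growth factors, by 1.20 ± 0.37 (2.31-fold, adjusted p = 0.0458). Lower were the pyruvate carboxylase gene Pcx, -0.60 ± 0.12 (1.52-fold, adjusted p = 0.00461), the fasting factor gene Creb3l3, -0.79 ± 0.16 (1.73-fold, adjusted p = 0.00475), and the glucose-6-phosphate transporter gene Slc37a4, -0.64 ± 0.20 (1.56-fold, adjusted p = 0.0496). The rate-setting enzyme genes Pck1 (0.11) and G6pc (0.36) did not pass the test. Of 18 genes of glycogen handling 2 were higher and 2 lower with all arrays (2 and 1 without minor trauma array 3). Ppp1r3g, a subunit that steers protein phosphatase 1 to glycogen, read 3.83, 3.87 and 4.84 in minor trauma and 6.82, 7.19, 6.86 and 6.64 in shock and changed by 2.69 ± 0.32 (6.47-fold, adjusted p = 2.8e-05). Its relative Ppp1r3c read 8.45, 9.63 and 10.78 in minor trauma and 11.22, 11.87, 11.82 and 11.60 in shock, widely spread in minor trauma, and changed by 2.01 ± 0.57 (4.03-fold, adjusted p = 0.0297). Gys2, liver glycogen synthase, was lower, -0.86 ± 0.21 (1.81-fold, adjusted p = 0.0127), and Pygl, the phosphorylase, was at -0.08. Of 22 genes of the insulin and growth hormone axis 3 were higher and 0 lower with all arrays (2 and 1 without minor trauma array 3), and Trib3, an Akt-binding pseudokinase, changed by 1.15 ± 0.27 (2.22-fold, adjusted p = 0.0107). The call was lost for Igfbp1 without minor trauma arrays 1 or 2 or shock arrays 1, 2, 3 or 4 (adjusted p 0.0504 to 0.203, change 0.78 without minor trauma array 1), Slc37a4 without minor trauma arrays 1 or 3 or shock arrays 1, 2, 3 or 4 (adjusted p 0.0681 to 0.219) and Ppp1r3c without minor trauma arrays 1 or 2 or shock arrays 2, 3 or 4 (adjusted p 0.0515 to 0.132). As the median of its probe sets Pde4b was at 0.86 (adjusted p = 0.0616, not called).

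Fat oxidation genes were lower in part, lipid droplet genes changed in both directions, and 3 lipogenesis genes were higher. Of 31 PPAR-alpha and fatty acid oxidation genes 0 were higher and 8 lower with all arrays (0 and 4 without minor trauma array 3), with medians of -0.56 and -0.34. Cpt1a, the gate of fatty acids into mitochondria, read 10.48, 10.32 and 11 in minor trauma and 9.35, 9.56, 9.64 and 9.68 in shock and changed by -1.04 ± 0.18 (2.06-fold, adjusted p = 0.00144). Cpt2 changed by -0.84 ± 0.16 (1.79-fold, adjusted p = 0.00255). On every shock array Cpt1a lay below all minor trauma and all control arrays. Cyp4a14, a PPAR-alpha target, read 8.47, 10.91 and 11.31 in minor trauma and 6.64, 7.88, 7.05 and 10.28 in shock with controls from 5.74 to 12.65, -2.27 ± 1.26 (4.81-fold, adjusted p = 0.267, not called), and Fgf21, a fasting hormone, changed by -1.40 ± 0.37 (2.64-fold, adjusted p = 0.0213). Of 17 lipid droplet and lipolysis genes 2 were higher and 5 lower with all arrays (1 and 4 without minor trauma array 3), with medians of -0.03 and 0.04, and Hilpda, given above, was among those higher. G0s2, an inhibitor of adipose triglyceride lipase, read 9.76, 9.90 and 8.36 in minor trauma and 7.55, 7.27, 6.96 and 7.83 in shock, minor trauma array 3 being the lowest of its group and shock lower still. Cidec, which fuses droplets, read 4.87, 5.57 and 6.81 in minor trauma and 3.38, 3.76, 3.91 and 4.01 in shock. The changes were -1.94 ± 0.34 (3.83-fold, adjusted p = 0.00167) and -1.98 ± 0.40 (at least 2.22-fold, adjusted p = 0.00415). Pnpla2, that lipase itself, -0.94 ± 0.20 (1.92-fold, adjusted p = 0.00645), Mgll, monoglyceride lipase, -1.15 ± 0.19 (2.22-fold, adjusted p = 0.00093), and Plin2, a droplet coat protein, -0.93 ± 0.21 (1.91-fold, adjusted p = 0.00887), were lower too. Against control, G0s2 was -0.06 in minor trauma and -2.0 in shock, while Pnpla2 was 1.03 and 0.09. Of 22 lipogenesis genes 3 were higher and 0 lower with all arrays (3 and 0 without minor trauma array 3). Srebf1, the insulin-driven activator of lipogenesis, read 8.98, 8.86 and 9.07 in minor trauma and 10.51, 10.80, 10.20 and 11.28 in shock and changed by 1.72 ± 0.31 (3.3-fold, adjusted p = 0.00195), Insig1, a sterol-regulated inhibitor of SREBP processing, by 1.83 ± 0.22 (3.56-fold, adjusted p = 2.7e-05) and Gpam by 0.60 ± 0.17 (1.52-fold, adjusted p = 0.0315). Fasn (1.00), Acaca (-0.54) and Scd1 (-0.02) did not pass the test. Of 19 cholesterol genes 2 were higher and 0 lower with all arrays (1 and 0 without minor trauma array 3). Fdft1, squalene synthase, 0.91 ± 0.25 (1.88-fold, adjusted p = 0.0263), and Stard4, 0.98 ± 0.26 (1.97-fold, adjusted p = 0.021), were called, and Hmgcs1 (1.00) was not. The threshold was missed for Plin2 without minor trauma array 3 (adjusted p 0.0555), Fgf21 without minor trauma arrays 2 or 3 or shock array 1 (adjusted p 0.0622 to 0.0749) and Gpam without minor trauma arrays 1 or 2 or shock arrays 1, 2 or 4 (adjusted p 0.0575 to 0.0913). Likewise it was lost for Fdft1 without minor trauma array 1 or shock arrays 1, 2 or 4 (adjusted p 0.0519 to 0.108) and Stard4 without minor trauma array 3 or shock arrays 2 or 4 (adjusted p 0.0605 to 0.148, change 0.64 without minor trauma array 3). Taken as the median over probe sets, Cpt1a was at -1.01 (adjusted p = 0.081, not called), Cpt2 at -0.66 (adjusted p = 0.0675, not called) and Gpam at 0.46 (adjusted p = 0.201, not called).

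**Figure D5:**
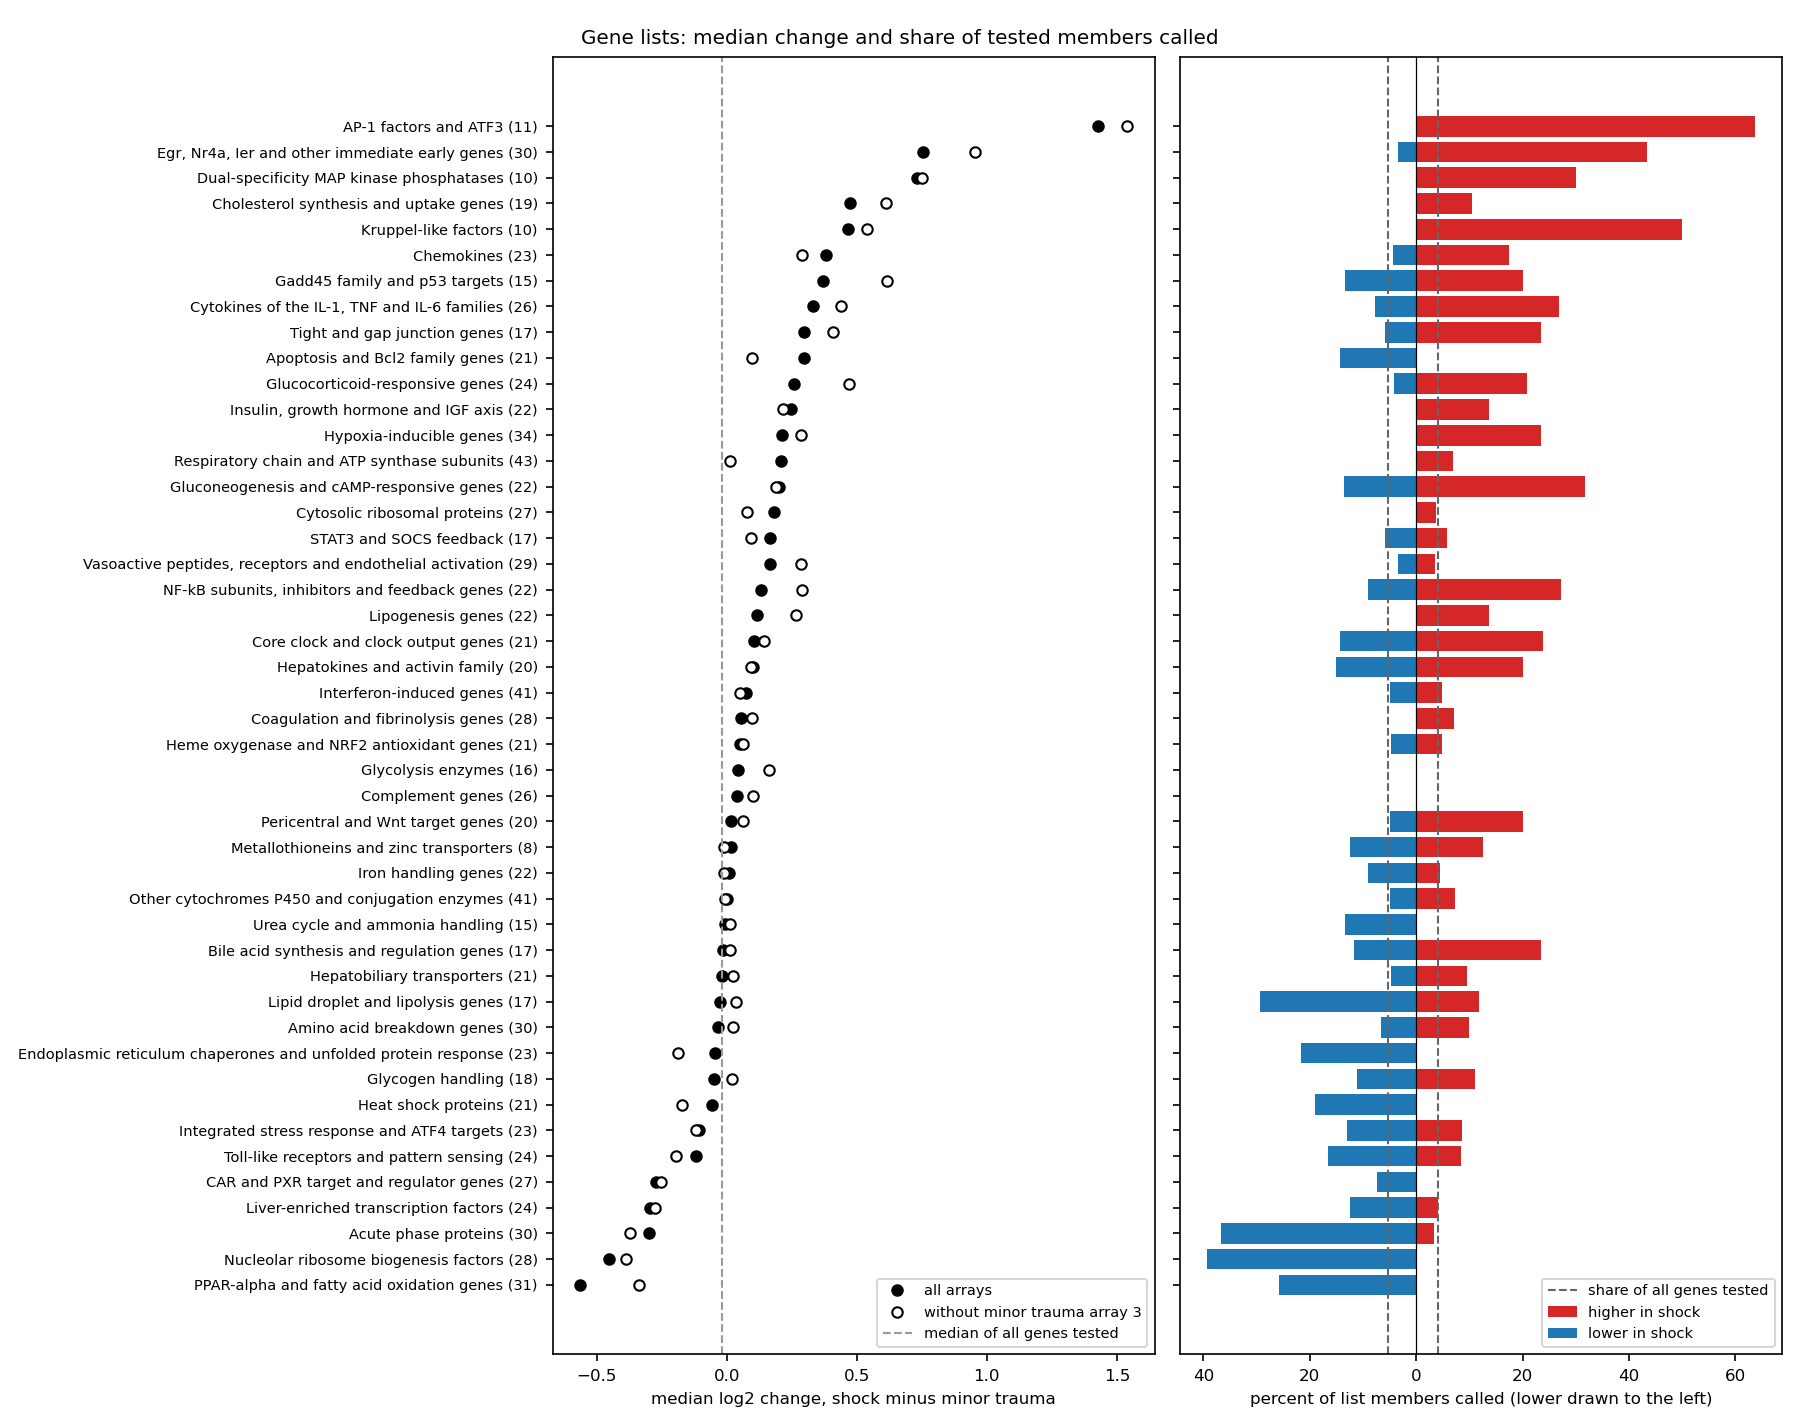
Left: median log2 change, shock minus minor trauma, of the tested members of each list (number in brackets) with all arrays (filled) and without minor trauma array 3 (open), beside the median of all genes (dashed). Right: percent of members called higher or lower with all arrays, beside 4.18% and 5.38% of all genes (dashed); AP-1 factors stand highest in both panels, and nucleolar and acute phase genes hold the largest shares called lower.

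Hepatokine genes held some of the largest changes of both signs. Of 20 tested, 4 were higher and 3 lower with all arrays (5 and 2 without minor trauma array 3). Angptl8, a feeding-induced inhibitor of lipoprotein lipase, read 5.72, 6.18 and 5.11 in minor trauma and 8.87, 9.74, 7.97 and 8.79 in shock. Inhbe, the activin E subunit gene, read 8.32, 8.11 and 8.18 in minor trauma and 5.14, 5.21, 4.65 and 5.10 in shock, and Nrg4, a growth factor of the EGF family, 8.78, 9.01 and 8.33 in minor trauma and 5.55, 5.44, 5.29 and 5.34 in shock. None of the 3 overlapped between groups, and the shock arrays lay close together for Inhbe and Nrg4. The changes were 3.17 ± 0.45 (9.01-fold, adjusted p = 0.0003), -3.18 ± 0.25 (9.04-fold, adjusted p = 1.1e-07) and -3.30 ± 0.57 (9.85-fold, adjusted p = 0.00127). Inhbe was 0.91 in minor trauma and -2.26 in shock against control, and Nrg4 2.49 and -0.81. Enho, which encodes adropin, changed by 1.91 ± 0.42 (3.76-fold, adjusted p = 0.00646). Among the largest changes outside the lists, Depp1, a target of FOXO factors, read 6.19, 6.62 and 7.87 in minor trauma and 10.70, 10.63, 10.55 and 10.40 in shock with controls from 6.55 to 9.04, 3.68 ± 0.46 (12.8-fold, adjusted p = 4.7e-05). Gnat1, named for rod transducin, read 7.43, 7.31 and 8.19 in minor trauma and 4.50, 4.98, 4.12 and 4.99 in shock, -2.99 ± 0.37 (7.95-fold, adjusted p = 4.7e-05), and Slc16a5, a monocarboxylate transporter gene, 5.33, 5.93 and 6.39 in minor trauma and 2.91, 2.88, 2.99 and 4.36 in shock, -2.60 ± 0.51 (at least 2.43-fold, adjusted p = 0.00299). Syt12, a synaptotagmin gene, changed by -2.0 ± 0.36 (at least 2.41-fold, adjusted p = 0.00199), and Sult1e1, estrogen sulfotransferase, which was dim, by -2.09 ± 0.56 (at least 1.58-fold, adjusted p = 0.0212). Significance was lost for Sult1e1 without minor trauma arrays 2 or 3 or shock arrays 1 or 2 (adjusted p 0.0585 to 0.0882).

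Bile acid genes changed in both directions, and 2 CAR and PXR genes were called. Of 17 bile acid genes, 4 were higher and 2 lower with all arrays (3 and 1 without minor trauma array 3). Nr0b2, the repressor SHP, read 7.65, 7.60 and 7.55 in minor trauma and 9.74, 9.78, 9.15 and 9.94 in shock and changed by 2.05 ± 0.34 (4.14-fold, adjusted p = 0.00094). Klb, the co-receptor beta-klotho for FGF signals on bile acid synthesis, changed by 1.17 ± 0.21 (2.26-fold, adjusted p = 0.00184), while Nr1h4, the bile acid receptor FXR, was lower, -0.69 ± 0.18 (1.61-fold, adjusted p = 0.0162). The rate-limiting enzyme gene Cyp7a1 was at -0.12 and Cyp8b1 at -0.01. Of 21 transporters 2 were higher and 1 lower with all arrays (0 and 1 without minor trauma array 3). Slc22a5, the carnitine importer, was lower, -1.86 ± 0.28 (3.64-fold, adjusted p = 0.00036), and the bile salt pump gene Abcb11 changed by 0.74 ± 0.23 (1.67-fold, adjusted p = 0.0462) with all arrays. Of 27 CAR and PXR genes 0 were higher and 2 lower with all arrays (0 and 2 without minor trauma array 3). These were Cyp3a13, -1.19 ± 0.23 (2.29-fold, adjusted p = 0.00246), and Sult1d1, -1.22 ± 0.28 (2.33-fold, adjusted p = 0.0078). The CAR target Cyp2b10 read 11.45, 12.26 and 12.36 in minor trauma and 8.07, 9.15, 8.92 and 8.90 in shock with controls 1 to 4 at 6.14 or less and control 5 at 11.83, and missed the threshold, -3.26 ± 1.09 (9.59-fold, adjusted p = 0.0617, not called). In amino acid breakdown Ddc, aromatic amino acid decarboxylase, read 8.00, 7.10 and 7.83 in minor trauma and 11.01, 10.28, 10.48 and 10.05 in shock and changed by 2.81 ± 0.47 (7.03-fold, adjusted p = 0.00111). Mat1a, which makes S-adenosylmethionine, -0.70 ± 0.16 (1.63-fold, adjusted p = 0.0088), and the urea cycle gene Asl, -0.90 ± 0.20 (1.86-fold, adjusted p = 0.00674), were lower, while Cps1 (0.03) and Otc (0.23) did not pass the test. The call did not hold for Abcb11 without minor trauma arrays 2 or 3 or shock arrays 1, 2, 3 or 4 (adjusted p 0.069 to 0.256, change 0.49 without minor trauma array 3).

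Genes of protein folding and of ribosome building were lower in shock in part. Of 23 endoplasmic reticulum chaperone and unfolded protein response genes, 0 were higher and 5 lower with all arrays (0 and 3 without minor trauma array 3), with medians of -0.05 and -0.19. Dnajb9, the co-chaperone ERdj4, read 11.13, 11.29 and 10.71 in minor trauma and 9.42, 9.47, 9.24 and 9.62 in shock. Xbp1, the factor spliced by the sensor IRE1, read 12.35, 12.25 and 12.59 in minor trauma and 11.74, 11.48, 11.48 and 11.11 in shock, and Creb3l2 7.25, 7.25 and 7.63 in minor trauma and 6.14, 6.08, 5.97 and 5.99 in shock. Each lay below minor trauma on all shock arrays, and control array 5 lay within the minor trauma range for Dnajb9. The changes were -1.60 ± 0.30 (3.04-fold, adjusted p = 0.00214), -0.94 ± 0.18 (1.92-fold, adjusted p = 0.00221) and -1.33 ± 0.26 (2.52-fold, adjusted p = 0.00322). The secreted ER protein gene Creld2 changed by -1.18 ± 0.32 (2.26-fold, adjusted p = 0.0242) and the ER ubiquitin ligase gene Syvn1 by -0.72 ± 0.22 (1.64-fold, adjusted p = 0.044), while the abundant chaperone genes Hspa5 (-0.23), Hsp90b1 (0.23) and Calr (-0.16) did not pass the test. The ER stress element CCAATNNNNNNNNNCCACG, to which ATF6 and XBP1 bind with NF-Y, stood in 9 of 20 windows of this list (45.0%), against 0.119% of all windows. The list was chosen for this response, so that share is no result of these arrays. Of all genes lower in shock 3 of 726 windows held it (0.413%), so at most 3 of the 9 belong to members called lower. The upstream bases that hold it are shown for Creld2 and Syvn1, which were called with all arrays but not without minor trauma array 3. They run from 20 bases before the element, which is in capitals and on the opposite strand in Creld2.
Creld2 (chr15:88819500-88819645, plus strand): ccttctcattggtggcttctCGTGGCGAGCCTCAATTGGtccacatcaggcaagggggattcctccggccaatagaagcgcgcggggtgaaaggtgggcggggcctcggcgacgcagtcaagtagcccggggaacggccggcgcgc
Syvn1 (chr19:6046512-6046575, plus strand): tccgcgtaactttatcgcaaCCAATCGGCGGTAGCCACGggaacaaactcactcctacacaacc

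Of 21 heat shock proteins 0 were higher and 4 lower with all arrays (0 and 4 without minor trauma array 3). The 4 were not the same genes, since Hspa8 and Hspb8 were called lower with all arrays only (adjusted p 0.228 and 0.145 without minor trauma array 3). Bag3, a co-chaperone of selective autophagy, read 8.34, 8.12 and 8.32 in minor trauma and 6.73, 7.0, 6.94 and 7.04 in shock and changed by -1.33 ± 0.23 (2.52-fold, adjusted p = 0.00115). Of 23 integrated stress response genes, 2 were higher and 3 lower with all arrays (2 and 2 without minor trauma array 3). Ppp1r15a, which ends the response by dephosphorylating eIF2alpha, changed by 1.41 ± 0.21 (2.66-fold, adjusted p = 0.00034), and Atf4, its main transcription factor, by -0.79 ± 0.16 (1.73-fold, adjusted p = 0.0039), while Ddit3 (0.60) and Asns (-0.62) did not pass the test. Nucleolar ribosome biogenesis factors held the largest share of members lower. Of 28 tested, 0 were higher and 11 lower with all arrays (0 and 5 without minor trauma array 3), with medians of -0.45 and -0.39. Nop2, an rRNA methyltransferase, read 7.57, 7.18 and 7.47 in minor trauma and 6.22, 6.32, 6.36 and 6.25 in shock. Rrp12, an export factor of pre-ribosomes, read 5.87, 5.51 and 6.21 in minor trauma and 4.04, 4.83, 4.58 and 4.63 in shock. All shock arrays lay below all minor trauma arrays for both genes. The changes were -1.12 ± 0.21 (2.17-fold, adjusted p = 0.00254) and -1.34 ± 0.28 (2.54-fold, adjusted p = 0.00527). The helicase gene Ddx21 changed by -1.05 ± 0.28 (2.07-fold, adjusted p = 0.0208), Rrp9 by -1.53 ± 0.38 (2.9-fold, adjusted p = 0.0148) and the RNA polymerase I subunit gene Polr1b by -1.02 ± 0.25 (2.03-fold, adjusted p = 0.0146), whereas Fbl (-0.11), Npm1 (0.21) and Ncl (0.13) did not pass the test. With 1 array left out, the call was lost for Ddx21 without minor trauma array 2 or shock arrays 2 or 3 (adjusted p 0.0512 to 0.0716), Rrp9 without minor trauma array 3 or shock array 2 (adjusted p 0.0532 to 0.0834) and Polr1b without minor trauma array 3 (adjusted p 0.102). It was also lost for Creld2 without minor trauma array 3 or shock arrays 2 or 4 (adjusted p 0.0683 to 0.0738) and Syvn1 without minor trauma arrays 1, 2 or 3 or shock arrays 1, 2, 3 or 4 (adjusted p 0.0568 to 0.113). By the median of all its probe sets Syvn1 was at -0.65 (adjusted p = 0.0674, not called).

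Calls in the ribosomal, respiratory chain, complement and interferon lists are given beside the shares over all genes tested. These shares were 4.18% higher and 5.38% lower with all arrays, and 2.84% and 2.96% without minor trauma array 3. Of 27 cytosolic ribosomal protein genes 1 was higher, and of 43 respiratory chain and ATP synthase genes 3 were higher, with medians of 0.18 and 0.21. An unadjusted p under 0.05 was reached by 15 and 23 of them, against 3353 of the 12832 genes tested. Without minor trauma array 3 none of either list was called and the medians were 0.08 and 0.01, and 1 ribosomal and 3 respiratory chain genes passed an unadjusted p of 0.05 there. None of 26 complement genes was called in either fit, and 1 passed an unadjusted p of 0.05. Of 41 interferon-induced genes 2 were higher and 2 lower with all arrays (1 and 2 without minor trauma array 3). Gbp6, a guanylate-binding protein gene, changed by 1.62 ± 0.35 (3.07-fold, adjusted p = 0.00588) and Ifit2 by 1.11 ± 0.31 (2.16-fold, adjusted p = 0.0278), and the signalling genes Stat2 by -1.05 ± 0.25 (2.07-fold, adjusted p = 0.0111) and Irf9 by -0.67 ± 0.15 (1.59-fold, adjusted p = 0.00776). Of 21 apoptosis genes 0 were higher and 3 lower with all arrays (0 and 3 without minor trauma array 3). Fas, Casp8, -0.82 ± 0.16 (1.77-fold, adjusted p = 0.00246), and Cflar, -0.78 ± 0.20 (1.72-fold, adjusted p = 0.0172), were lower. In the list of vasoactive and endothelial genes Sox18, a transcription factor of vessel formation, read 5.65, 5.84 and 6.41 in minor trauma and 3.61, 4.72, 3.97 and 4.75 in shock, -1.71 ± 0.38 (3.27-fold, adjusted p = 0.00757), and lay below every control array in shock, -1.71 against control. Ptgs2 (cyclooxygenase 2), dim on all minor trauma arrays, changed by 1.37 ± 0.38 (adjusted p = 0.0245), and Nos3 (-0.35), Edn1 (0.51), Sele (0.25) and Icam1 (-0.22) did not pass the test. In the antioxidant list Gclc, the catalytic subunit for glutathione synthesis, changed by 1.57 ± 0.35 (2.97-fold, adjusted p = 0.0073), and Txnrd1, -0.47 ± 0.11 (1.39-fold, adjusted p = 0.00925), was lower; Hmox1 was at -0.78 and Nqo1 at -0.32, neither called. The adjusted p passed 0.05 for Ifit2 without minor trauma array 3 or shock arrays 2 or 3 (adjusted p 0.0731 to 0.133), Cflar without minor trauma arrays 1 or 2 or shock arrays 2 or 4 (adjusted p 0.0533 to 0.0603) and Ptgs2 without minor trauma arrays 1 or 3 or shock arrays 2 or 3 (adjusted p 0.067 to 0.0882). With probe sets combined by their median, Txnrd1 was at -0.76 (adjusted p = 0.054, not called).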

How the data were processed

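RNA from whole liver was hybridised as biotin-labelled cRNA to 1-colour arrays, per the labels' protocols. The deposited values are linear intensity signals made by the authors with MAS5, per the submitters' processing notes; its version and scaling are not given in the sources used here. Array medians ran from 14.05 to 29.11 and 2% trimmed means from 64.9 to 166.6, so arrays had not been brought to 1 level. Signals were taken as log2(signal + 6) and quantile normalized over 20 arrays. Probe sets numbered 45101: 34945 named 1 gene in the platform annotation, 932 several, 9160 none and 64 were controls. A probe set was kept if above the median of its array on at least 3 arrays, and the brightest kept probe set stood for a gene (12832 of 18193 genes; symbols updated through RefSeq, GRCm38.p6). limma 3.58.1 in R 4.3.3 fitted 5 group means with an intensity trend, the contrast was shock minus minor trauma, and p-values were adjusted by Benjamini-Hochberg over all genes tested at a threshold of 0.05. The number of arrays limits the precision.

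Genes named are the 12 largest called changes in each direction, for each list its called members of largest change, up to 4 (or the 2 members of smallest p where none was called), and the 6 largest in each direction called only without minor trauma array 3; 35 genes known by clone names were left out of the ranking, and other list members are named as members. The members and lists were chosen with earlier results of these data known. List genes not matched on the array are not analysed here. Replicate numbers do not pair the arrays: deviations from the group means of arrays with the same number correlated at -0.0409, 0.0232 and -0.00156.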

Additional observations from a re-analysis of the deposited data

Results flagged for a closer look

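Among 182 named genes, 15 had 1 shock array far from the other 3 by Dixon's test, which chance flags in about 1 of 20 groups. Shock array 4 was the lowest for Cd83 at 6.35, for Cd14 at 7.42 and for Clec4e at 4.29, where the others lay from 7.61 to 7.81, from 9.11 to 9.35 and from 6.07 to 6.32. It was the highest for Slc16a5 at 4.36, the others lying from 2.88 to 2.99, and for Gclc at 10.7. Shock array 2 was the lowest for Abcb11 at 10.8, Cyp3a13 at 9.58, Gpt2 at 10.5 and Hbb-b2 at 4.89. The same array was the highest for Mgll at 9.68, Hspb8 at 10.3 and Irak2 at 8.66. Shock array 3 was the lowest for Insig1 at 11.4 and Pkhd1 at 5.29, and shock array 1 the highest for Atp8b1 at 8.21.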

How the results depend on the processing

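The count of 1226 called genes ran from 710 to 1612 when single arrays were left out, with 741 without minor trauma array 3 and 710 without shock array 2. The 536 genes higher ran from 334 to 777 in these fits, the 690 lower from 376 to 835 and the 384 of at least 2-fold from 301 to 523. With no normalization 372 genes were called (122 higher, 250 lower), and median centring gave 322 higher and 958 lower. Array weights gave 851 higher. Within the arrays with the Dap spike-in 251 were called (123 higher, 128 lower, 218 by at least 2-fold) and within those without it limma called 3 (3 higher, 0 lower, 3 by at least 2-fold), the latter with 1 minor trauma array and 1276 genes at an unadjusted p under 0.05. Without minor trauma array 3 the 741 calls became 184 with no normalization, 1358 with the shock and minor trauma arrays alone in the fit, 1247 with array weights, 169 within the arrays with the spike-in and 3 within those without it. These settings without that array were added after the data were seen. The other settings kept these counts within 1.5 times, and the cause of the shifts was not tested. With the replicate number as a block, 1363 genes were called; the numbers are shared names and not a pairing, and no lost call is read from it.

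Of 152 called genes named by rule, 94 stayed called in every fit with 1 array left out and 3 under every setting. The call was lost for 57 of the 152 with no normalization, 24 with median centring, 18 with the median over probe sets and 18 with no filter on low values. Within the arrays with the Dap spike-in it was lost for 74 of 151. With the shock and minor trauma arrays alone in the fit it was lost for 22 of 149. Among these were Ccl3, Ccl4, Clec4e, S100a9, Nfkbiz, Jak2 and Nr3c1. Keeping the probe set of a gene when an array was left out was a setting added after the data were seen, and it bore on Per3 and Stat3. None of the 214 called list or named genes changed sign under another scaling, which was likely in advance because the shifts are small beside most called changes. Medians of the AP-1, acute phase, fat oxidation and nucleolar lists kept their sign relative to the shift of all genes. The comparison rests on 3 minor trauma arrays, 1 of them outlying. Dim genes have only bounds.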

Other observations

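Single genes of retinoid and steroid enzymes outside the groups above were called too. For the lists in this paragraph the shares over all genes tested were 4.18% higher and 5.38% lower with all arrays. They were 2.84% and 2.96% without minor trauma array 3. Of 41 other cytochrome P450 and conjugation genes 3 were higher and 2 lower with all arrays (1 and 0 without minor trauma array 3). These counts are near the shares over all genes and do not set the list apart. Cyp26a1, which degrades retinoic acid, read 7.43, 8.35 and 7.75 in minor trauma and 9.33, 10.32, 9.02 and 9.47 in shock with controls from 6.91 to 8.41, and changed by 1.69 ± 0.44 (3.22-fold, adjusted p = 0.0181). Cyp17a1, which makes androgen precursors, was lower, reading 6.95, 7.67 and 7.44 in minor trauma and 5.47, 5.30, 5.64 and 6.27 in shock, -1.68 ± 0.52 (3.21-fold, adjusted p = 0.0452). Cyp2u1 changed by 1.45 ± 0.37 (2.74-fold, adjusted p = 0.0163). The threshold was missed for Cyp26a1 without minor trauma arrays 1 or 3 or shock array 2 (adjusted p 0.0601 to 0.0673), Cyp17a1 without minor trauma arrays 2 or 3 or shock arrays 1, 2 or 3 (adjusted p 0.0814 to 0.124) and Cyp2u1 without minor trauma array 2 (adjusted p 0.0832, change 0.87). Taken as the median over probe sets, Cyp2u1 was at 0.89 (adjusted p = 0.0623, not called). Of 28 coagulation genes 2 were higher and 0 lower with all arrays (0 and 0 without minor trauma array 3). The contact pathway genes F11, coagulation factor XI, and Klkb1, plasma prekallikrein changed by 0.65 ± 0.17 (1.57-fold, adjusted p = 0.0178) and 0.75 ± 0.19 (1.68-fold, adjusted p = 0.0162). Significance was lost for F11 without minor trauma arrays 2 or 3 (adjusted p 0.0525 to 0.0619) and Klkb1 without minor trauma array 3 (adjusted p 0.116, change 0.46). Of 24 liver-enriched transcription factors 1 was higher and 3 lower with all arrays (0 and 3 without minor trauma array 3), and Prox1, a regulator of hepatocyte identity, was lower, -0.89 ± 0.26 (1.85-fold, adjusted p = 0.0335). The call did not hold for Prox1 without minor trauma arrays 1 or 2 or shock arrays 2 or 3 (adjusted p 0.0823 to 0.123). In iron handling the hemojuvelin gene Hjv changed by 0.83 ± 0.26 (1.78-fold, adjusted p = 0.0469). With 1 array left out, the call was lost for Hjv without minor trauma arrays 1 or 2 or shock arrays 1, 2, 3 or 4 (adjusted p 0.0704 to 0.136). By the median of all its probe sets Hjv was at 0.81 (adjusted p = 0.0719, not called).

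Genes called without minor trauma array 3, but not with all arrays, were 151. The 6 largest increases among them were those of Foxm1 (1.77), Smarcd1 (1.65), Txnip (1.55), Adm2 (1.52), Rdh12 (1.39) and Cc2d1b (1.33). Txnip, a glucose-induced inhibitor of thioredoxin, read 7.87, 9.0 and 9.82 in minor trauma and 9.48, 10.60, 9.41 and 10.47 in shock, so that the left-out array was the highest of its group. The 6 largest decreases were those of Zfp950 (-1.56), Nop58 (-1.45), Thap2 (-1.33), Zbtb26 (-1.23), Zfp383 (-1.20) and Zfp160 (-1.15). Of these, Nop58 belongs to the box C/D small nucleolar ribonucleoproteins, and 5 carry names of zinc finger or THAP domain genes.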
